A study of Homo sapiens with 9 samples.

Results

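The 200 ZNF genes described here were chosen by their summed raw count in HEK293 cells, from 556 gene symbols that consist of ZNF, a number and at most 1 further letter. Each symbol's deposited counts were added over all 9 RNA-seq libraries and the 200 largest sums were kept. The sums ran from 12429.6 for ZNF426 down to 524.858 for ZNF619, so the overall level of a member is a product of the choice and is given as description only. ZNF780A, at 525.351, and ZNF619 were the last symbols inside the limit. ZNF280B, at 521.708, and ZNF552, at 520.97, were the first outside it. The Flpo libraries were the deepest and supplied 50.65% of the members' summed count, against 27.52% from Cas9 and 21.84% from Cre, so the choice leans toward genes with reads in Flpo. Ranking by mean CPM (counts scaled to a common library total), which weighs each library equally, chose 183 of the same 200.

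HEK293 is a human embryonic kidney cell line. The 3 groups of 3 libraries carried the labels CC_Cas9, CC_Cas9_Cre and CC_Cas9_Flpo, in a series on a chemically induced, reversible knockout system, and are called Cas9, Cre and Flpo below. Cas9 is an RNA-guided nuclease that all 3 groups carry, and Cre and Flpo are enzymes that recombine DNA at their loxP or FRT target sequences. The meaning of CC, any targeted gene, the promoters of the constructs, the clonal origin of the cells and any inducing compound are not given in the sources used here. Nothing states that replicates came from separate cultures, so p-values measure only the spread between these samples, which may be technical.

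Most ZNF genes encode C2H2 zinc finger proteins, in which short loops held by zinc through a pair of cysteines and a pair of histidines read successive bases of DNA. The largest subfamily adds a KRAB box, which recruits TRIM28, and TRIM28 in turn brings SETDB1, HP1 proteins and the NuRD complex to the bound site. Many KRAB proteins bind transposable elements. The subfamily grew by tandem duplication, and most of its genes lie in clusters on chromosome 19. Their bodies carry the repressive mark H3K9me3, and many are transcribed at low to moderate levels in cultured cells.

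In GENCODE release 29 (GRCh38), 196 of the 200 members are protein-coding genes and 4 are pseudogenes. A KRAB A box was found in 139 members (69.5%), against 54.49% of the other 356 ZNF symbols. On chromosome 19 lie 112 members (56%), of which 99 have the KRAB box, against 41.85% of the other symbols. The members encode a median of 10 C2H2 fingers, with a range of 0 to 31 and the largest number in ZNF91, a KRAB protein known to repress SVA retrotransposons. The other ZNF symbols also had a median of 10 fingers. A share of a member's transcript, 4.409% at the median, consists of 24-base words that also occur in transcripts of at least 10 other genes. That share is 0.58% at the median of the other ZNF symbols, and it is called the repeated share below.

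RefSeq (GRCh38.p14) gave a promoter for 170 of the 200 members, and the 250 bases before the start were searched on both strands for 6 short motifs. These were the TATA box TATAAA, the SP1 core GGGCGG, the CCAAT box, the ETS core CCGGAA, the YY1 core ATGGCG and the NRF1 core GCGCATGC, and none of them contains another. The ETS core was present in 44.7% of member promoters, in 35.5% of the other ZNF promoters and in 14.5% of all 35116 promoters. The TATA box was present in 1.18% of member promoters and 10.7% of all. The SP1 core was found in 61.2% against 42.6% of all, CCAAT in 43.5% against 32%, and the NRF1 core in 9.41% against 2.63%. Member promoters held a median of 18 CpG dinucleotides, against 11 for all promoters. A match describes letters in this window and does not show a bound site. The motifs were chosen with the results known.

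The windows of 5 members are printed because these genes showed some of the largest differences between Cre and Flpo, with ZNF8, ZNF546 and ZNF609 higher in Cre and ZNF284 and ZNF607 lower. Each is written 5′ to 3′ on the gene's strand, and capitals mark any of the 6 motifs on either strand.
ZNF8 (chr19:58278705-58278954, plus strand): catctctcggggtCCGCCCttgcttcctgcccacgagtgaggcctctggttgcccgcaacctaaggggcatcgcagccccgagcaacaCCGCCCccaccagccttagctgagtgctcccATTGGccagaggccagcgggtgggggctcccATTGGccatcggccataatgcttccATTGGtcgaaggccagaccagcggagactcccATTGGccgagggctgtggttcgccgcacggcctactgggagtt
ZNF546 (chr19:39996810-39997059, plus strand): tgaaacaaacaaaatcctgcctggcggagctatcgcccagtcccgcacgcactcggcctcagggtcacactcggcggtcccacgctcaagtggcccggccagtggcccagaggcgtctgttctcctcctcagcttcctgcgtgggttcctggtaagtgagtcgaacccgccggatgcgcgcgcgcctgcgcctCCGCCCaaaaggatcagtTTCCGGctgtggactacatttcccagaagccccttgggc
ZNF609 (chr15:64460328-64460577, plus strand): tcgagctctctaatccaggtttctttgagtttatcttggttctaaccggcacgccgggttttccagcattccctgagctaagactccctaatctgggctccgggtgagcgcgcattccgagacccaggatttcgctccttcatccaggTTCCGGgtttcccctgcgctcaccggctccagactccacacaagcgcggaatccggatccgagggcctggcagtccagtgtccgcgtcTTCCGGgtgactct
ZNF284 (chr19:44071909-44072158, plus strand): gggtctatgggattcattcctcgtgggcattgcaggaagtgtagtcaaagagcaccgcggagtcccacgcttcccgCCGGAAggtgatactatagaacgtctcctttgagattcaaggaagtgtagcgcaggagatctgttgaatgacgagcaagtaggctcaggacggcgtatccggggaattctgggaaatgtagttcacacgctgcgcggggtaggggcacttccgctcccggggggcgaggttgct
ZNF607 (chr19:37719189-37719438, minus strand): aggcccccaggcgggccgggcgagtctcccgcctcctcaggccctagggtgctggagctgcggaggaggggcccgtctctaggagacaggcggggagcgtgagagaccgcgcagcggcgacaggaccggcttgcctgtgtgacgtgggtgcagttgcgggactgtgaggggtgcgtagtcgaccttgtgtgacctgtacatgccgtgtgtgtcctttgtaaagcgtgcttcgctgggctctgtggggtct
ZNF8 holds 4 CCAAT matches and 2 SP1 cores, ZNF609 holds 2 ETS cores, and ZNF546 holds 1 SP1 core and 1 ETS core. ZNF284 holds 1 ETS core and ZNF607 holds no match. Among members past the threshold, an ETS core was present in 62.1% of the 29 promoters of genes higher in Cre and in 50% of the 8 promoters of genes lower in Cre. ZNF417 and ZNF471, described below, had no entry in the promoter table.

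The 9 libraries differed widely in depth, from 213907 estimated counts in Cre replicate 2 to 8833491 in Flpo replicate 1. All Flpo totals, from 4989524 to 8833491, exceeded all Cre totals, which reached 1701730, so depth and group cannot be told apart between Cre and Flpo. Of the 200 members, 133 had at least 10 counts in Cre replicate 2, and 189 to 200 had them in each other library. The floor of 3 counts is 11.2 CPM in Cre replicate 2 and 0.48 to 2.57 CPM elsewhere, after scaling with edgeR's TMM factors. Markers also set this library apart: 5 fibroblast genes, among them the collagen genes COL1A1, COL1A2 and COL3A1, summed to 8119 CPM in Cre replicate 2, to 279 to 1082 CPM in Cas9 and to 187.6 to 214.1 CPM in Flpo. COL1A2 alone was at 4918 CPM in Cre replicate 2, 1075 CPM in Cre replicate 3 and 344.8 CPM in Cre replicate 1, so replicate 3 was also above every Cas9 library. Of the 6 embryonic kidney markers, PAX2 was at or near 0 in every library, while VIM was the most abundant. The 6 neuronal markers summed to 90.6 to 2099 CPM, the highest again in Cre replicate 2. TUBB3 alone gave 2062 CPM there, while NEFM, INA and DPYSL3 were at 0 in that library. The 9 liver markers, listed because the extraction protocol names livers, summed to 6.42 to 121.5 CPM, mostly from TF, with FGB at 0 throughout and ALB at 0 outside Flpo replicate 2. The 4 blood markers summed to at most 8.52 CPM. The part of these markers in the ZNF results was not tested.

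The 200 genes together took the largest mean share of counts in the Cre group, and their smallest shares were in 2 of the 3 Flpo libraries. Replicates 1, 2 and 3 of the Cas9 group gave them 2.92%, 1.563% and 1.092% of counts. The same replicates gave 2.171%, 2.819% and 3.704% in Cre, but 0.6293%, 1.325% and 0.6471% in Flpo. The Cre and Flpo libraries did not overlap, while Cas9 overlapped both. The mean share was 2.898% ± 0.77 in the Cre group, 1.858% ± 0.949 in the Cas9 group and 0.867% ± 0.397 in the Flpo group (SD, 3 libraries each). Within the Cas9 group and within the Flpo group the share was lower in deeper libraries. Within Cre the deepest library, replicate 1, had the smallest share, but the shallowest, replicate 2, had a smaller share than replicate 3. These levels helped choose the members and are given without a test.

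**Figure D1:**
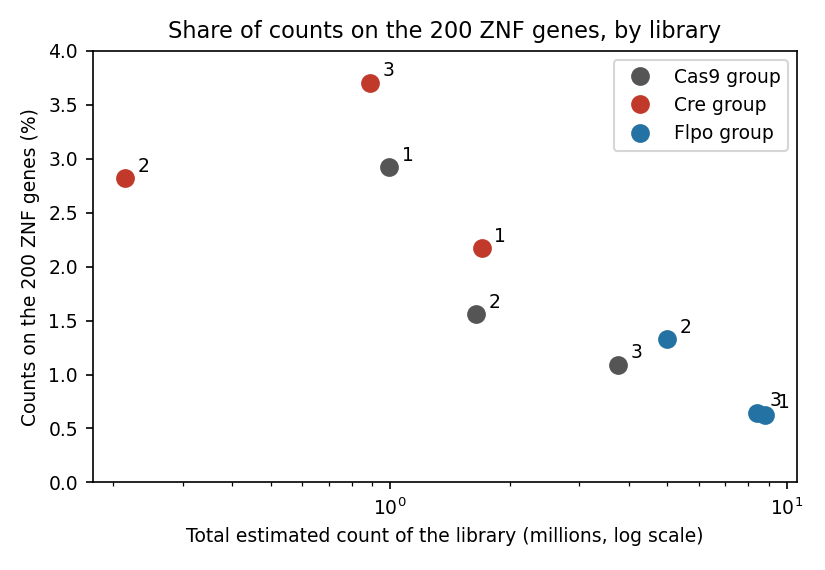
Percentage of each library's counts on the 200 ZNF genes (vertical axis) against the library's total estimated count (horizontal axis, log scale), 1 point per library, coloured by group and numbered by replicate. The 3 Flpo libraries, at 0.6293% to 1.325%, are the deepest libraries, and the 3 Cre libraries, at 2.171% to 3.704%, lie above them in share.

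The most abundant members were mostly KRAB genes of chromosome 19. The 10 largest raw sums belonged, in order, to ZNF426, ZNF471, ZNF793, ZNF557, ZNF714, ZNF665, ZNF562, ZNF431, ZNF8 and ZNF829, all on chromosome 19 and all with a KRAB box except ZNF714. Per kilobase of transcript, which allows levels of different genes to be compared, ZNF207 and ZNF562 led with means over the 9 libraries of 134.1 and 133.7 CPM per kilobase. ZNF557 followed with 102.1 and ZNF426 with 91.7. ZNF207 is not a KRAB gene: it encodes a spindle and kinetochore protein that stabilises BUB3.

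ZNF426 was measured at 1012, 457.9 and 427.5 CPM in the Cas9 replicates, 563.7, 869.7 and 1152 CPM in Cre, and 247.6, 946.9 and 166.7 CPM in Flpo. Flpo replicate 2 stood among the Cre values and far above the other Flpo libraries. The same order held for ZNF793, at 105.2, 462.6 and 72.6 CPM in Flpo, and for ZNF829, at 86.4, 398.4 and 58.6 CPM. ZNF557 was steadier, with group means of 255.2 ± 8.53 CPM in Cas9, 159.8 ± 44.2 CPM in Cre and 279.5 ± 42.9 CPM in Flpo (SD, n = 3 each). Of these 10 genes, ZNF431, ZNF8 and ZNF471 passed the threshold in the comparison of Cre with Flpo. The other 7 passed in none of the 3 comparisons.

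Differences were tested with edgeR's quasi-likelihood test on 11905 genes, among them all 200 members, and called at a Benjamini-Hochberg adjusted p under 0.05. Cre and Flpo differed in 45 members (22.5%), close to the 20.5% of all tested genes, but under TMM scaling their direction was the opposite of the background. In Cre, 35 members were higher (17.5%, against 6.17% of all tested genes) and 10 were lower (5%, against 14.3%). The median log2 fold change of Cre over Flpo was 0.78 over the 200 members and -0.34 over all tested genes, and 165 members lay above the median of all genes. The 3 Cre values all exceeded the 3 Flpo values in 76 members (38%, against 15.2% of tested genes), and all lay below them in 23 members (11.5%, against 27.9%). The other 171 tested ZNF symbols had a median of 0.13, with 13 higher and 8 lower.

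These calls changed with single libraries, with scaling and with the treatment of depth. Without Cre replicate 2, Cre replicate 3 or Flpo replicate 1, no gene of the whole table passed edgeR's adjusted threshold, and 85, 50 and 66 members had an unadjusted p under 0.05. The same held with library depth (log2 total count) as a covariate, with 8 members at an unadjusted p under 0.05. In the reported fit 84 members (42%) were under that unadjusted level, near the 39.8% of all tested genes. The shares of all genes at that level were not computed for the other fits, so nothing about ZNF genes is read from these counts. Without Flpo replicate 3, 8 members passed, 3 higher and 5 lower (3.28% of all tested genes passed). Without Flpo replicate 2, 107 passed, 90 higher and 17 lower (44.1% of all tested genes). Without TMM factors 86 members were higher and 5 lower, and the background turned as well, with 17.1% of all tested genes higher and 7.06% lower. Members and background thus went opposite ways under TMM scaling and the same way there. The member median log2 fold change without TMM factors still lay above the 0.44 of all genes. With depth as a covariate the median of all genes was 0.19, and the member median lay below it. The 45 members kept their sign in every one of these fits. The choice of members touches the lower calls: Flpo supplied 73.86% to 96.56% of the raw sum of the 10 lower members and 10.1% to 44.91% of that of the 35 higher ones. Choosing by mean CPM gave 48 called genes, 41 higher and 7 lower.

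**Figure D2:**
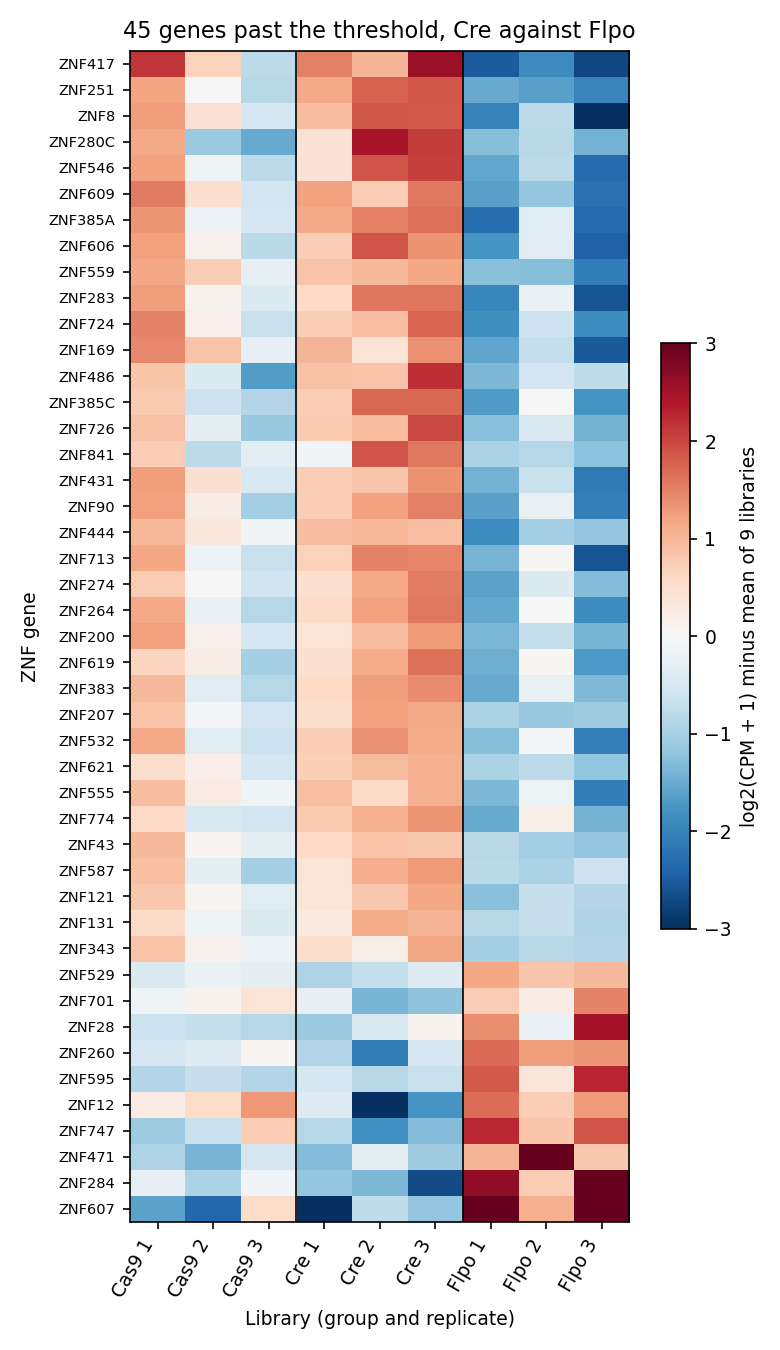
Level of the 45 members past the threshold (rows, ordered by log2 fold change of Cre over Flpo) in each library (columns, by group and replicate), as log2(CPM + 1) minus the mean of the gene over the 9 libraries, with colours cut off at -3 and 3. The upper 35 rows are mostly red in Cre and blue in Flpo and the lower 10 rows mostly the reverse, with pale exceptions in Flpo replicate 2 and, for ZNF28, overlapping groups, and Cas9 replicate 1 resembles Cre in most of the upper rows.

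Among the 35 members higher in Cre, 24 have a KRAB box and 20 lie on chromosome 19. The largest difference was that of ZNF417, which lies at chr19:57900296-57916610 and encodes a primate KRAB protein that, with its close relative ZNF587, represses HERV-K proviruses. ZNF417 was measured at 111.1, 78.4 and 235.1 CPM in the Cre replicates and at 6.04, 9.46 and 4.95 CPM in the Flpo replicates. In Cas9 it was at 172, 62.5 and 21.7 CPM, below the Cre range in replicates 2 and 3 and inside it in replicate 1. The log2 fold change of Cre over Flpo was 4.39 ± 0.78 (SE; adjusted p = 0.01668 by edgeR's quasi-likelihood test). Its transcripts share 45.22% of their 24-base words with ZNF587, so reads can be split between the pair, and ZNF587 was itself higher in Cre by 1.76 on the log2 scale.

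ZNF8, a KRAB gene with 7 fingers at chr19:58278951-58302805, was measured at 629, 354.6 and 181.6 CPM in Cas9, 500.4, 951.8 and 946.4 CPM in Cre, and 64.7, 151.3 and 31.8 CPM in Flpo. All Flpo values lay below all others. The log2 fold change of Cre over Flpo was 3.27 ± 0.74 (SE; adjusted p = 0.01847 by edgeR's quasi-likelihood test).

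ZNF251, a KRAB gene on chromosome 8, was measured at 79.4, 123.2 and 131.3 CPM in Cre and at 11.7, 10.7 and 8.14 CPM in Flpo, and its log2 fold change of 3.44 ± 0.60 had the smallest unadjusted p of the members. ZNF546, at chr19:39984134-40021041 with 22 fingers, had Cre values of 90.6, 250.1 and 286.6 CPM against 22.1, 38.6 and 12.8 CPM in Flpo. Its log2 fold change was 3.09 ± 0.69 (SE). ZNF280C, on chromosome X and without a KRAB box, was at 48.7, 205.3 and 158.7 CPM in Cre and at 14.3, 19.9 and 12.8 CPM in Flpo. In these 3 genes the groups did not overlap, and the shallow Cre replicate 2 was highest in ZNF280C only.

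ZNF609, which encodes a partner of the cohesin loader NIPBL and of Integrator and lies at chr15:64460742-64686068, has 1 finger and no KRAB box. Its level was 181.2, 87.8 and 40.8 CPM in Cas9, 141.8, 104.5 and 185.3 CPM in Cre, and 19.2, 26.8 and 12.3 CPM in Flpo. The Flpo values were the 3 lowest. The log2 fold change of Cre over Flpo was 2.90 ± 0.60 (SE). ZNF385A, a p53 partner that also binds RNA, had a log2 fold change of 2.82 ± 0.69, with 192 to 272 CPM in Cre and 16.8 to 67 CPM in Flpo. The remaining named genes of this group, ZNF606, ZNF559 and ZNF283, are KRAB genes of chromosome 19 with log2 fold changes of 2.69, 2.57 and 2.56. Adding depth as a covariate reduced the log2 fold change of 17 of the 24 named members past the threshold by more than 1.5 times, for example to 0.13 for ZNF280C and 0.43 for ZNF606, while those of ZNF417, ZNF609 and ZNF559 were reduced by less.

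Among the 10 members lower in Cre, 9 have a KRAB box and 7 lie on chromosome 19. ZNF607, with 18 fingers at chr19:37696363-37719790, was measured at 114.9, 15.9 and 85.3 CPM in the Flpo replicates. In Cre it rested on 0, 1 and 3 counts and in Cas9 on 2, 1 and 38 counts, so its fitted log2 fold change of -5.67 ± 1.31 (SE) depends on few reads. ZNF284, at chr19:44072144-44089613, was at 74.2, 19.4 and 98.3 CPM in Flpo, at 4.39, 3.73 and 0.86 CPM in Cre, and at 9.14, 5.16 and 10.3 CPM in Cas9. Its Cre values rested on 8.8, 1 and 1.1 counts. The fitted log2 fold change of ZNF284 was -4.42 ± 0.82 (SE). Flpo supplied 96.56% of the raw sum of ZNF607 and 94.31% of that of ZNF284, and neither would have been chosen by mean CPM, so their height in Flpo is part of how they were chosen and is given as description. The same holds for ZNF12 below. Mean CPM also counts the Flpo libraries, and Flpo supplied at least 73.86% of the raw sum of each of the 10 lower members. The height of the others in Flpo therefore also helped choose them and is given as description. In ZNF607 and ZNF284 Flpo replicate 2 was the lowest of the Flpo libraries.

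ZNF471, a KRAB gene at chr19:56507843-56530221, went the other way within Flpo. It was measured at 51.5, 37.3 and 70 CPM in Cas9, 40, 82.1 and 47.2 CPM in Cre, and 202.4, 1220 and 173.1 CPM in Flpo. Replicate 2 carried most of the Flpo signal, although the other Flpo libraries also exceeded every Cre and Cas9 value. The log2 fold change of Cre over Flpo was -3.27 ± 0.78 (SE), and -1.79 without Flpo replicate 2, where edgeR's adjusted p was 0.0103.

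ZNF747, on chromosome 16, was at 143.7, 52.4 and 109.2 CPM in Flpo and at 15.6, 7.47 and 11.2 CPM in Cre. ZNF260, 1 of the 13 chromosome 19 members without a KRAB box, was at 115.1, 84.1 and 88 CPM in Flpo and at 18.5, 7.47 and 24 CPM in Cre. ZNF529 lies next to it in the same cluster and was at 57.1, 45.2 and 50.6 CPM in Flpo and at 12.7, 14.9 and 18.9 CPM in Cre. Replicates of these genes were closer than those of ZNF607 or ZNF471, with log2 fold changes of -3.06 ± 0.66, -2.42 ± 0.51 and -1.72 ± 0.48 (SE). ZNF12, ZNF595 and ZNF701 were also lower in Cre, by log2 fold changes of -2.58, -2.43 and -1.77. ZNF12 had 0 counts in Cre replicate 2, which at that depth allows up to 11.2 CPM. Without TMM factors 4 of these no longer passed: ZNF529 at -0.92, ZNF701 at -1.005, ZNF12 at -1.79 and ZNF595 at -1.62, with edgeR adjusted p of 0.172, 0.187, 0.0699 and 0.0563.

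**Figure D3:**
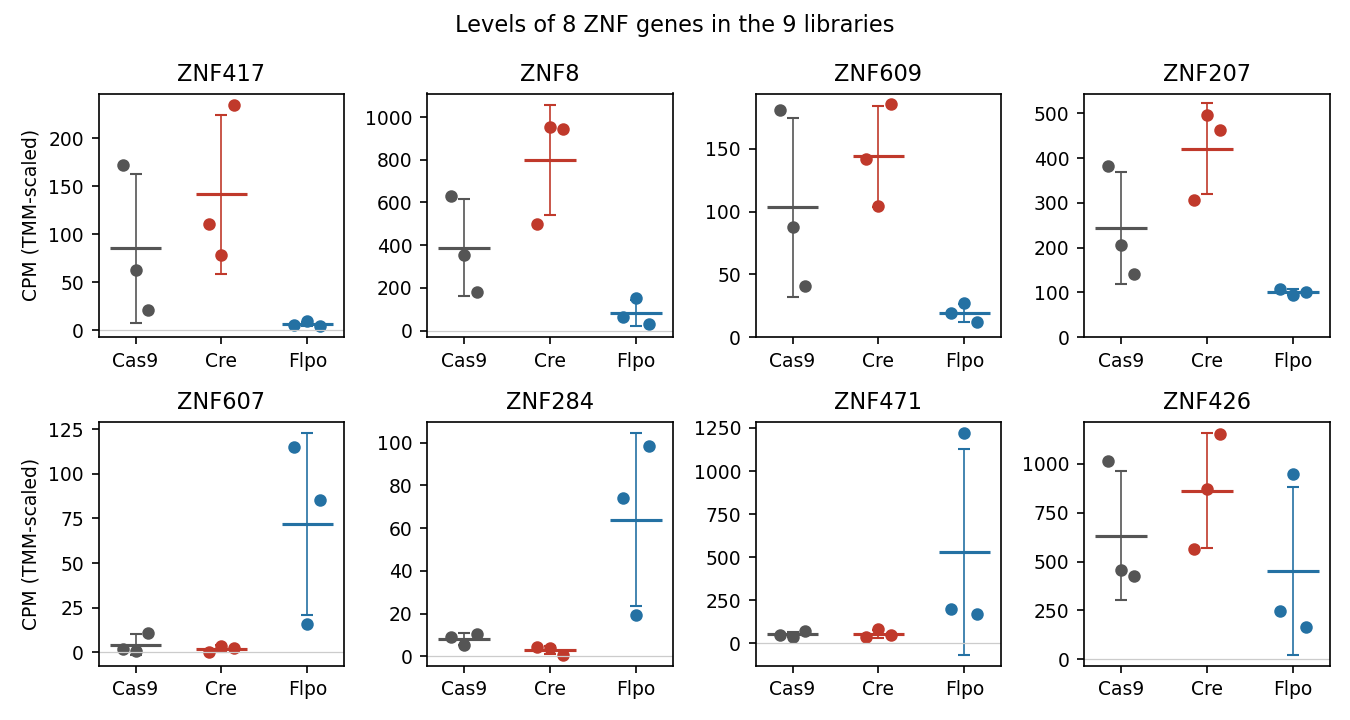
TMM-scaled CPM (vertical axes) of 8 members in the Cas9, Cre and Flpo groups, 1 point per library, with the group mean as a wide line and the SD as an error bar (n = 3 each); bars that reach below 0 mark a large spread. ZNF417, ZNF8, ZNF609 and ZNF207 are lowest in Flpo, ZNF607, ZNF284 and ZNF471 are highest there, and ZNF426 overlaps across groups.

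Flpo and Cas9 differed in no member at an adjusted p under 0.05 by edgeR's quasi-likelihood test, where 0.227% of all tested genes passed. At an unadjusted p under 0.05, 14 members were higher in Flpo (7%, against 13.2% of tested genes) and 35 were lower (17.5%, against 6.78%). DESeq2 called 25 members at its adjusted threshold, 11 higher and 14 lower, where 9.02% of all genes passed. Limma with sample weights called 137, 33 higher and 104 lower, where 61% of all genes passed. The 3 Flpo values all exceeded the 3 Cas9 values in 16 members (8%, against 12.8%), and all lay below them in 44 (22%, against 12.2%). The member median log2 fold change was -0.52, and 0.05 over all tested genes; with depth as a covariate the member median was 0.0031 and that of all genes -0.25. Without Flpo replicate 2 edgeR called 55 members, 12 higher and 43 lower (21.3% of all tested genes passed), and the member median was -0.997. The members of smallest p were ZNF417, at -3.64 ± 0.75 (adjusted p = 0.05896), ZNF595, at 2.61 ± 0.57 (adjusted p = 0.05896), and ZNF559, at -2.22 ± 0.51 (adjusted p = 0.06923), all log2 fold changes with SE by edgeR. ZNF595, a KRAB gene on chromosome 4, was at 10.8, 12.6 and 10.9 CPM in Cas9 and at 77.6, 27.1 and 105 CPM in Flpo. Flpo supplied 90.99% of the raw sum of ZNF595, so its height in Flpo helped choose it and is given as description.

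Cre and Cas9 differed in no member at the adjusted threshold by edgeR, where 0% of all tested genes passed, and DESeq2 also called none. At an unadjusted p under 0.05, 10 members differed by edgeR (5%, against 7.38% of tested genes) and 17 by DESeq2, where the share of all genes was not computed. Limma with sample weights called 73 members at its adjusted threshold, 60 higher and 13 lower, where 14.3% of all genes were higher and 19% lower. The Cre values all exceeded the Cas9 values in 9 members (4.5%, against 3.46%) and all lay below them in 10 (5%, against 6.37%). The member median log2 fold change was 0.36, and -0.22 over all tested genes. The members of smallest p were ZNF468 at 2.49 ± 0.68, ZNF12 at -2.06 ± 0.73 and ZNF280C at 1.93 ± 0.74 (log2 fold change and SE; adjusted p = 0.6189 for each by edgeR's quasi-likelihood test). ZNF468, a KRAB gene of chromosome 19, was at 24.9, 6.31 and 10.9 CPM in Cas9, at 70.7, 52.3 and 107.3 CPM in Cre, and at 75.2, 41.9 and 184.5 CPM in Flpo. It was therefore low in Cas9 alone, but it shares 55.45% of its 24-base words with ZNF320.

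The Cas9 group mean lay between the Cre and Flpo means for all 35 members higher in Cre, for 7 of the 10 lower in Cre, and for 134 of the 200 members. The 3 comparisons share libraries and are not independent of each other. Among the 35 higher members, the highest of the 9 values was in Cre replicate 3 for 23, in Cre replicate 2 for 10 and in Cas9 replicate 1 for 2. The lowest was in Flpo replicate 3 for 25 of the 35. All 45 were picked for a difference between Cre and Flpo, which by itself tends to place Cas9 between them and the extremes in them. These counts are therefore description only, and shares over all tested genes were not computed. Cas9 replicate 1 and Cre replicates 2 and 3 have the 3 smallest totals of the 9 libraries, and the part of depth in these counts was not tested.

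**Figure D4:**
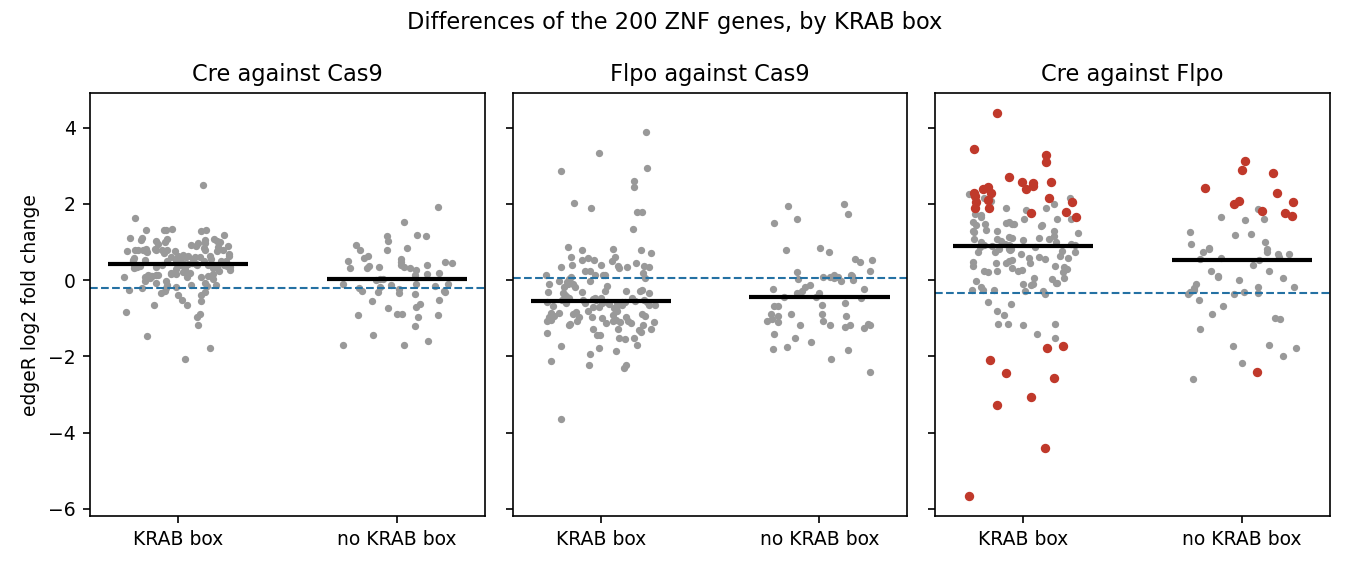
edgeR log2 fold change of each member (vertical axis, 1 point per gene) in the 3 comparisons, for the 139 members with and the 61 without a KRAB box; red points passed an adjusted p of 0.05, black lines are medians and the dashed blue line is the median of all 11905 tested genes. Red points occur only in Cre against Flpo, where the medians are 0.88 and 0.54 and the line for all genes is at -0.34.

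The members were divided by KRAB box and by chromosome in Cre against Flpo. The KRAB members had 24 higher and 9 lower of 139, with a median of 0.88, and the others 11 higher and 1 lower of 61, with a median of 0.54. On chromosome 19, 20 of 112 members were higher and 7 lower, with a median of 0.92, against 15 and 3 of 88 elsewhere, with a median of 0.64. Of all 200 members 17.5% were higher and 5% lower, and of all tested genes 6.17% and 14.3%. No difference between these divisions was tested.

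Chromosome 19 neighbours did not all go one way. In the cluster at chr19:19668796-24129961, which borders the centromere, 6 of 18 members were higher in Cre and none of the 18 was lower: ZNF90, ZNF486, ZNF431, ZNF43, ZNF724 and ZNF726, with log2 fold changes of 1.78 to 2.54. The distal cluster at chr19:55476332-58481230 held 7 higher members of 23, among them ZNF417, ZNF8, ZNF606 and ZNF274, and 1 lower member, ZNF471. In the cluster at chr19:36182060-37817300, 1 of 16 was higher (ZNF383) and 3 were lower (ZNF260, ZNF529 and ZNF607). ZNF283, higher in Cre, and ZNF284, lower, lie in the same cluster at chr19:43525497-45076588. Among all members 17.5% were higher and 5% lower, against 6.17% and 14.3% of all tested genes, and no cluster was tested against these shares. Clusters were runs of ZNF symbols with gaps under 1000000 bases, defined with the results known, and several hold pairs with shared sequence.

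In 171 members (85.5%) the deposited value was not a whole number in any of the 9 libraries, as arises when reads are divided among transcripts of several genes. That was so for 42.7% of the other tested ZNF symbols and 47.8% of all tested genes. All 35 members higher in Cre were among these 171, as were 7 of the 10 lower ones (20.5% and 4.09%, with a median log2 fold change of 0.91). Of all 5685 tested genes without a whole value, 10.4% were higher and 7.55% lower, with a median of 0.53. A value of 0 is whole, so a gene low in the shallow Cre replicate 2, member or not, can fall outside these sets for that reason alone. That by itself can move these sets toward higher in Cre. Nothing is therefore read from their direction or from that of the other 29 members. The part of read sharing in the calls was not tested. This division was chosen after the values were seen. The repeated share itself was weakly related to the fold change, with Spearman's rho of 0.19 across the 200 members, which are not independent replicates.

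Several members have functions outside transposon silencing, and these were listed by role with earlier results known. Of 10 ZNF genes with a role in RNA, ribosome or spindle biology, 8 are members; 2 of the 10 passed in Cre against Flpo, both higher, against 20.5% of all tested genes. The list's median was -1.15 on the log2 scale, and -0.34 over all genes. ZNF207 was at 306, 496.5 and 462.5 CPM in Cre, 108.7, 95.1 and 100.7 CPM in Flpo, and 383.1, 205.4 and 141.3 CPM in Cas9. The Flpo replicates agreed closely and lay below all others, and the log2 fold change was 2.05 ± 0.54 (SE; adjusted p = 0.02403 by edgeR's quasi-likelihood test). ZNF385A, described above, was the other gene to pass. ZNF346, which binds double-stranded RNA, had a value of -1.73 ± 0.59, and ZNF593, a factor of large ribosomal subunit assembly, of -1.70 ± 0.67, with edgeR adjusted p of 0.05356 and 0.08376. ZNF326, a splicing factor, ZNF638, ZNF330 and ZNF106 had log2 fold changes of -0.998, -0.51, -1.29 and -0.32 and did not pass.

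Of 26 ZNF genes of transcription and chromatin complexes, 23 were tested and 12 are members. In Cre against Flpo, where 20.5% of all tested genes passed, 3 were higher, the members ZNF609, ZNF532 and ZNF131, and 1 was lower, ZNF76, a relative of the snRNA gene activator ZNF143 and not a member (log2 fold change -2.83 ± 0.87, edgeR adjusted p = 0.03912). ZNF532, part of a complex with ZNF592, ZNF687 and ZMYND8, was at 107.7, 168 and 140.7 CPM in Cre and at 26.1, 62.4 and 14.9 CPM in Flpo, a log2 fold change of 2.01 ± 0.64 (SE). Its partner ZNF687 had a value of -0.34 ± 0.47 and did not pass. ZNF131, a BTB-domain factor, was at 45.3, 82.1 and 77.2 CPM in Cre and at 20.7, 22.8 and 19.6 CPM in Flpo, a log2 fold change of 1.68 ± 0.49 (SE). ZNF410, an activator of the NuRD gene CHD4, had a value of -0.31 ± 0.59. ZNF644, ZNF451, a SUMO ligase, ZNF292, ZNF318, ZNF703, ZNF503 and ZNF827 had values between -1.03 and 0.60, and none of these passed.

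Of 9 KRAB genes with known DNA targets, 6 were tested and 5 are members. The 1 gene of the 6 that passed in Cre against Flpo was ZNF274, where 20.5% of all tested genes passed. ZNF274 binds the 3′ ends of ZNF genes and recruits SETDB1 there. It was at 151.5, 238.9 and 315.7 CPM in Cre, 34.5, 80.3 and 42.9 CPM in Flpo, and 182.8, 106.1 and 70.8 CPM in Cas9. The log2 fold change of Cre over Flpo was 2.16 ± 0.56 (SE; adjusted p = 0.02309 by edgeR's quasi-likelihood test). ZNF91 had a value of 1.47 ± 0.53 (adjusted p = 0.06198), with 231.9, 194.1 and 447.9 CPM in Cre and 114.6, 111.9 and 91.2 CPM in Flpo. ZNF445, which protects imprinted loci, was at 81.6, 330.7 and 68 CPM in Flpo, with a log2 fold change of 0.46 ± 0.65. ZNF268 and ZNF765 had values of 1.01 ± 0.64 and 0.26 ± 0.51.

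The genes through which KRAB proteins act were examined from a list of their own. Of 35 tested cofactor and heterochromatin genes, 1 was higher and 2 were lower in Cre than in Flpo, against 20.5% of all tested genes past the threshold. An unadjusted p under 0.05 was found for 9 of the 35 and for 39.8% of all tested genes, and their median log2 fold change was -0.47, near the -0.34 of all genes. TRIM28 was at 260.1, 240.4 and 301.8 CPM in Cas9, 266, 11.2 and 154.4 CPM in Cre, and 220.5, 156.2 and 235 CPM in Flpo. The value in Cre replicate 2 was at the floor of that library, and the log2 fold change of -0.47 ± 0.72 (SE) did not pass. SETDB1, the H3K9 methyltransferase, had 22.4, 33.6 and 16.3 CPM in Cre and 19.2, 22 and 17.6 CPM in Flpo, with overlapping groups and a log2 fold change of 0.24 ± 0.51.

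EHMT2, which encodes the H3K9 methyltransferase G9a, was the cofactor gene higher in Cre, at 199.8, 182.9 and 269.4 CPM against 59.5, 99.9 and 62.7 CPM in Flpo (log2 fold change 1.56 ± 0.51, edgeR adjusted p = 0.04818). SUMO2, which encodes a modifier that TRIM28 carries, was lower in Cre. It was at 222.2, 160.5 and 135.6 CPM in Cre and at 954.4, 327.6 and 871.5 CPM in Flpo, a log2 fold change of -2.05 ± 0.62 (SE; adjusted p = 0.03562 by edgeR's quasi-likelihood test). The groups did not overlap, and Flpo replicate 2 was the lowest Flpo library. Against Cas9, no cofactor gene passed edgeR's adjusted threshold. Of the 35, 1 had an unadjusted p under 0.05 for Cre and 6 for Flpo, against 7.38% and 20% of all tested genes.

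Flpo replicate 2 differed from the other Flpo libraries in many of the members. The log2 ratio of its level to the mean of replicates 1 and 3, with 1 CPM added to each, had a median of 0.59 over the 200 members. It was above 1 in 75 members, above 2 in 24 and below -1 in 17. The ratio was not computed over all tested genes, so whether these counts are particular to ZNF genes cannot be told. Of the 24, 21 have a KRAB box and 15 lie on chromosome 19. Flpo replicate 2 supplied 19% of the members' summed count, more than any other library, so the choice favours genes high in it and these values are description. ZNF780A, with a ratio of 3.30, was at 8.45, 87.4 and 7.5 CPM in Flpo replicates 1, 2 and 3, and 342.4 of its 525.351 counts came from replicate 2, without which it would not have been chosen. ZNF844 followed, at 11.9, 81.8 and 7.66 CPM, and ZNF483, at 13.6, 80.8 and 8.78 CPM. The list also holds ZNF471, ZNF829, ZNF793, ZNF426, ZNF665, ZNF445 and ZNF283.

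Members low in Flpo and those high in Flpo stood differently in this library. The 35 members higher in Cre had a median ratio of 1.03, so at the median replicate 2 lay toward Cre. The 10 lower members had a median of -1.10, again toward Cre. Not every member followed its median: the ratio was -0.14 for ZNF207 and -0.23 for ZNF587, both higher in Cre. It was 2.69 for ZNF471, which was lower in Cre. The 155 members not called had a median of 0.59. Flpo replicate 2 was the shallowest Flpo library. The part of depth in this pattern was not tested. Spearman's rho between the ratio and the repeated share was 0.24 across the 200 members, a weak relation between genes that share libraries.

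**Figure D5:**
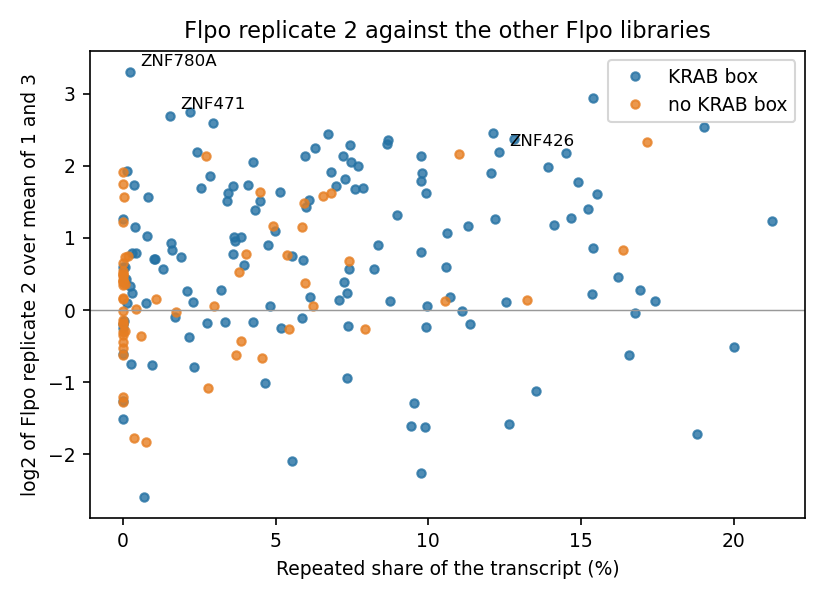
Log2 ratio of the level in Flpo replicate 2 to the mean of Flpo replicates 1 and 3, with 1 CPM added to each (vertical axis), against the repeated share of the transcript in percent (horizontal axis), 1 point per member, coloured by KRAB box. Points reach 3.30 for ZNF780A, the median is 0.59, and members with a high ratio occur at low and high repeated shares.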

How the data were processed

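RNA from 9 HEK293 libraries was made into TruSeq libraries, per the labels' protocols, in 3 groups of 3. The authors deposited 1 table of estimated counts, not normalized, for 35876 symbols. The submitters' processing notes name Salmon 0.14.1 and hg38 without their roles. The annotation and the use of strand are not given in the sources used here, so antisense and overlapping genes, 81 members among them, may share reads.

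The estimated counts were rounded to whole numbers. All 9 libraries were fitted with edgeR 4.0.16 (R 4.3.3) with TMM scaling, group alone as the term, and the default filter (minimum count 10, minimum total 15), which left 11905 genes. Each standard error was approximated from the log2 fold change and the square root of its F statistic. Alternatives used DESeq2 1.42.0, limma 3.58.1 (voom with sample quality weights), other filters and scalings, depth or replicate number as terms, and fits without each library. Depth ran from 213907 to 8833491 counts; floors of 3 counts cover counting error only. The code was tested on simulated data.

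Coordinates, finger counts (C-x(2,4)-C-x(12)-H-x(3,5)-H) and KRAB boxes (a position score of at least 15 bits) come from GENCODE 29, and promoters from RefSeq. Named were the 10 largest raw sums, up to 10 rises and 10 falls per comparison among called members with groups apart (or the 3 of smallest p), the members of 3 role lists, and the called cofactors with TRIM28 and SETDB1. The values of 1 called cofactor gene are not reported here. ZNF587, ZNF621, the cluster members and those high in Flpo replicate 2 were named after their values were seen. The members, lists and tests were chosen with earlier results of these data known.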

Additional observations from a re-analysis of the deposited data

Results flagged for a closer look

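The direct comparison of Cre with Flpo is also the test of whether their effects against Cas9 differ, since both would be measured from the same Cas9 libraries. It passed for 45 members (22.5%, against 20.5% of all tested genes) by edgeR's quasi-likelihood test, although no member passed against Cas9 in either comparison. The position of Cas9 was counted among these 45 only and not over all tested genes, so the count is description. In 3 of the 45, every Cre library lay on one side of all Cas9 libraries and every Flpo library on the other. These were ZNF260, with a log2 fold change of Cre over Flpo of -2.42, ZNF284, with -4.42 and a place among the members that rests on its Flpo counts, and ZNF621, a gene without other mention here, with 1.90. ZNF284 rested on 8.8, 1 and 1.1 counts in Cre. The floor of 11.2 CPM in Cre replicate 2 lies above every Cas9 value of ZNF284, so its place below Cas9 is not secure. That of ZNF260 is also not secure, with 24.02 CPM in Cre replicate 3 and 24.1 CPM in Cas9 replicate 1. The value of ZNF260 in Cre replicate 2 rested on 2 counts, and Flpo supplied 85.2% of its raw sum.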

How the results depend on the processing

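Members called in Cre against Flpo numbered 45 in the reported fit, 79 with DESeq2, 91 without TMM factors (94.5% of them higher, against 77.8% as reported), 0 with log2 total count as a covariate, 143 with limma voom and sample weights (20.5%, 33.7%, 24.2%, 0% and 67.6% of all tested genes, in that order), and 27 of 100 when the 100 largest sums were taken. Flpo against Cas9 gave 0 as reported, 25 with DESeq2, 13 with no filter beyond 1 count and 137 with limma (9.02%, 4.6% and 61% of all tested genes); Cre against Cas9 gave 0 and, with limma, 73 (33.3%). Without each library in turn the counts ran from 0 to 107 in Cre against Flpo, from 0 to 55 in Flpo against Cas9 and from 0 to 0 in Cre against Cas9. The member median of Cre against Flpo was 1.55 without TMM factors (0.44 over all genes) and 1.20 with limma (-0.47 over all genes). With the depth covariate it was 0.13, below the 0.19 of all genes. Without single libraries it ran from 0.55 to 1.15. That of Flpo against Cas9 was -1.09 without TMM factors (-0.48 over all genes), reversed to 0.0031 with the depth covariate, and ran from -0.997 to -0.21 without single libraries. That of Cre against Cas9 ran from 0.15 to 0.67. The cause of these changes was not tested. With the replicate number as a block, 32 members were called in Cre against Flpo (13.2% of all tested genes passed), 31 of them among the 45. In that fit 1 cofactor gene was called in place of 3. Deviations of same-numbered libraries from their group means had mean correlations of -0.34 (Cre and Cas9), -0.096 (Flpo and Cas9) and 0.11 (Cre and Flpo). Single pairs reached 0.53, so these values do not settle whether the numbers pair the samples. In Cre against Flpo 2 of 3 libraries correlated best with their own number. Precision is limited by Cre replicate 2, where 3 counts equal 11.2 CPM.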
